A study of Mus musculus with 36 samples.

Results

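The heavy chain V genes (Ighv) were taken from the RNA-seq tables of normalized counts as every gene whose symbol starts with Ighv and that reached at least 1 normalized count in any library of its table. This gave 161 of the 185 Ighv genes listed for sorted cells (of 46078 rows in that table), 104 of 185 for cultured Pax5-/- cells (of 35896 rows) and 97 of 97 for cultured Sirt7-/- and wild-type cells (of 18721 rows), or 162 different genes in all. Of the members in cultured cells, 57 and 56 had a blank symbol and were recognised by their Ensembl gene ID. Genes were grouped by the family number after Ighv. SIRT7 is an NAD+-dependent deacetylase, and Pax5 is the transcription factor that commits lymphoid progenitors to the B lineage.

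The 24 RNA libraries came as 8 per table, in 4 groups of 2. Sorted cells were bone marrow pro-B cells (sorted as IgM-CD43+ B lineage cells) and pre-B cells (the same gate, CD43-) of 129Sv mice, either wild-type or carrying the germline Sirt7-/- deletion of exons, and each of the 4 adult mice gave 1 pro-B and 1 pre-B library. Cultured Pax5-/- pro-B cells had received a retrovirus with no insert (EV), wild-type Pax5 (Pax5Wt), or Pax5 with the SIRT7-regulated lysine replaced by glutamine (K198Q, which resembles an acetylated lysine) or by arginine (K198R, which cannot be acetylated). All of these groups share the Pax5 deletion, and the mice were of the C57BL/6 background. Their cells came from fetal liver per the methods and from bone marrow per the labels. In the last set, of bone marrow origin and by the methods of 129Sv mice unless stated otherwise, wild-type cultured pro-B cells carried EV and Sirt7-/- cultured pro-B cells carried EV, Pax5Wt or K198R, on top of their own Pax5. Cultures were grown on OP9 stroma with IL-7, SCF and FLT3-L, and the vectors carried human CD4 or GFP as the selection marker. ChIP-seq peak lists for Pax5Wt, K198Q and K198R in Pax5-/- cells, 2 per form, gave the Pax5 peaks in the locus.

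The heavy chain variable region is assembled in developing B cells by joining 1 V, 1 D and 1 J segment, and the V genes lie in a row upstream of the D segments on mouse chromosome 12. Ighv5 and Ighv2 (Q52) lie next to the D segments, Ighv1 (J558) makes up the far end, and the small families lie between. Pax5 is known to be needed for joining of the distal Ighv1 genes, through contraction of the locus, while proximal V genes rearrange without it. Unrearranged V genes are also transcribed from their own promoters, and the tables do not tell such germline transcripts from rearranged ones. In bulk samples, fewer cells using a V gene and less V gene RNA per cell cannot be told apart either.

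In GRCm38 (mm10) the 185 Ighv genes, 113 coding, 70 pseudogenes and 2 of the LV type, spanned chr12:113572927-116010093, or 2.44 Mb, and all their distances are given here from the end of this span on the D side. Ighv5 held 22 genes between 0.5 and 747.4 kb, Ighv2 11 genes between 1.8 and 306.6 kb, and Ighv1 93 genes between 779.1 and 2437.2 kb. Among the genes described below, Ighv5-2 lay at chr12:113578504-113578990 and Ighv5-4 at chr12:113597446-113597977, Ighv5-6 at chr12:113625506-113625956, Ighv14-2 at chr12:113994469-113994898, Ighv1-66 at chr12:115593110-115593591, Ighv1-85 at chr12:116000028-116000461 and Ighv1-86, the outermost, at chr12:116009659-116010093, all on the minus strand.

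A V gene can join only through the recombination signal that follows its coding end, a heptamer and a nonamer 23 bases apart. The signals of 8 genes on which the comparisons below turn are shown to let proximal and distal members be compared at the site the recombinase reads. They were read from GRCm38 on the coding (minus) strand, 5′ to 3′, with capitals for the first 7 bases after the coding end and for the 9 bases after the 23-base spacer. The 9 capitals mark this fixed position. Whether the nonamer of each gene starts exactly there was not tested, so the marked bases do not rank the nonamers of the families.
Ighv5-2 (chr12:113578465-113578503): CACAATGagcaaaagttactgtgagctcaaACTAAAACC
Ighv5-4 (chr12:113597407-113597445): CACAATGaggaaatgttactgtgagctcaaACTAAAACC
Ighv5-6 (chr12:113625467-113625505): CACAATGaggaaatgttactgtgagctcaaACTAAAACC
Ighv14-2 (chr12:113994430-113994468): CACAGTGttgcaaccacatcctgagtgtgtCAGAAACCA
Ighv3-3 (chr12:114196400-114196438): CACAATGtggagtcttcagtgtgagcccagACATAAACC
Ighv1-66 (chr12:115593071-115593109): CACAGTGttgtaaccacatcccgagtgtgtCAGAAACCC
Ighv1-85 (chr12:115999989-116000027): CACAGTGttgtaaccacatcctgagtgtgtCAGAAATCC
Ighv1-86 (chr12:116009620-116009658): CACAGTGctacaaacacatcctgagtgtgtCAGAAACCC
With the spacer set at 23 bases, an Ighv signal was found for 145 of 185 genes, and 82 of the 108 coding genes among them had the heptamer CACAGTG. The signals of Ighv5-4 and Ighv5-6 were identical. The Ighv1 signals shown carry CACAGTG and the Ighv5 signals CACAATG, and no relation of the signal to the RNA level was tested.

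Near-identical V genes share reads. A median of 38.7% of a gene's 31-base words also occurred in another Ighv gene, 60 of 183 genes shared over 50% of theirs, and 19 shared none, so values of single members are uncertain to that extent. The share was 75.4% for Ighv1-85, 69.0% for Ighv1-62-1, 58.6% for Ighv14-2, 38.7% for Ighv5-4, 9.35% for Ighv5-2 and 5.94% for Ighv3-3. The sorted cells were from 129Sv mice, and so were, by the methods unless stated otherwise, the cultured wild-type and Sirt7-/- cells. The Igh haplotype of 129Sv mice differs from that of the C57BL/6 reference, and its effect on the counting of single genes was not tested.

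The labels were checked against defining genes before the Ighv comparisons. Sirt7 in normalized counts stood at 2692 and 2533 (pro-B, wild-type), 363 and 366 (pro-B, Sirt7-/-), 5613 and 5219 (pre-B, wild-type) and 1066 and 821 (pre-B, Sirt7-/-). Sirt7 was thus low in all 4 knockout libraries, with no overlap at either stage. In 4 of the 8 sorted libraries the cell type field of the labels went against the title, and the titles were used. Dntt, the terminal transferase of pro-B cells, ranged from 19432 to 30750 in the pro-B libraries by title and stood at 131 and 157 in the pre-B libraries of wild-type and at 423 and 3838 in those of Sirt7-/- mice. The stages did not overlap, and Sirt7-/- pre-B replicate 2 stood apart from the other pre-B libraries. Pax5 in the Pax5-/- cultures stood at 2201 and 2103 with EV, 6458 and 6152 with Pax5Wt, 8918 and 8963 with K198Q and 21162 and 16609 with K198R. The mutant and wild-type forms were therefore not at 1 level of mRNA, and K198R exceeded Pax5Wt by 1.57 (log2, limma adjusted p = 0.0029).

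Sorted pro-B and pre-B cells transcribed most of the locus. Of the 161 members, 111 were coding and 50 pseudogenes, 15 families were represented, and 127 had counts in all 8 libraries. The mean over the 8 libraries was under 10 normalized counts for 36 members, 10 to 100 for 35, 100 to 1000 for 78 and at least 1000 for 12. It took 22 genes to reach 50% of the Ighv counts. In normalized counts per kb of exon, Ighv5-6 ranked first at 6260, followed by Ighv9-3 at 5707, Ighv3-6 at 5454, Ighv2-9 at 4902 and Ighv2-2 at 3970. The most abundant member therefore held only 4.30% of the summed Ighv counts, and the top 5 came from 4 families, Ighv1 not among them. The lowest member inside the rule was Ighv5-19, with a highest library of 1.05, and the highest gene outside it was Ighv1-48 with 0.932, while 22 of the 24 genes outside were at 0 in every library.

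**Figure D1:**
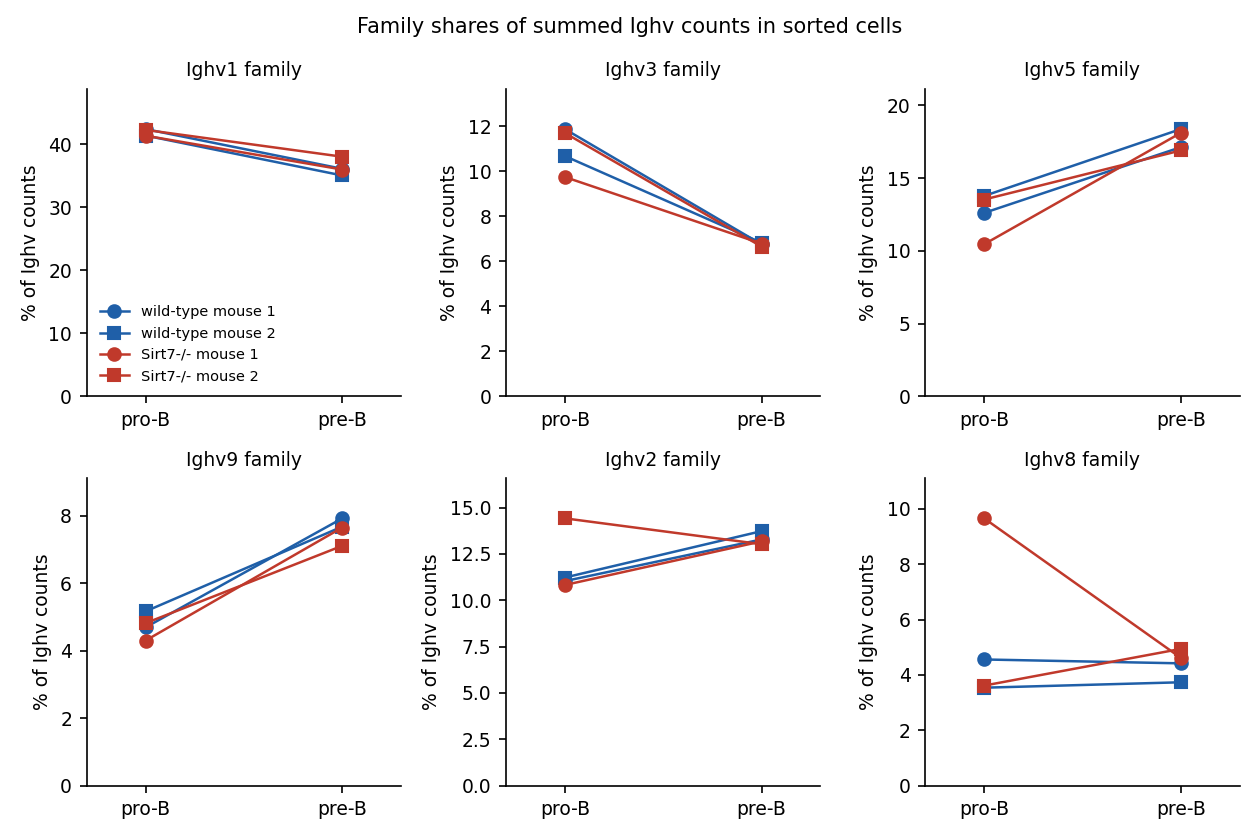
Share of the summed Ighv counts (percent) held by 6 families in pro-B and pre-B cells, with a line joining the libraries of 1 mouse (blue wild-type, red Sirt7-/-, circles mouse 1, squares mouse 2). All 4 Ighv1 lines go down, from 41.4% to 42.4% in pro-B to 35.1% to 38.0% in pre-B cells, and all 4 Ighv5 lines go up.

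In every mouse Ighv1 made up a smaller share of the Ighv counts at the pre-B stage. The Ighv1 share went from 42.4% in pro-B to 36.1% in pre-B cells of wild-type mouse 1, from 41.4% to 35.1% in wild-type mouse 2, from 41.4% to 36.0% in Sirt7-/- mouse 1 and from 42.3% to 38.0% in Sirt7-/- mouse 2. The pro-B and pre-B values did not overlap, and both genotypes lay together at each stage. The mean went from 41.9% to 36.3%, a difference of -5.56 ± 0.979 percentage points (SD, n = 4 mice, exact sign-flip permutation test over mice, two-sided, p = 0.13, the smallest p that 4 mice allow). The difference was -6.00 to -5.31 when each mouse was left out in turn.

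Other families shifted with it. The proximal Ighv5 share went from 12.6% to 17.1%, 13.8% to 18.4%, 10.5% to 18.1% and 13.5% to 16.9% in the same order of mice, higher in pre-B cells in 4 of 4. Ighv9, a small family between 521.4 and 727.5 kb, went from a mean of 4.74% to 7.59% and was higher in 4 of 4 mice, while Ighv3, between 391.9 and 749.9 kb, went from 10.99% to 6.75% and was lower in 4 of 4. Ighv2, as close to the D segments as Ighv5, had means of 11.9% and 13.3% and was higher in 3 of 4 mice. Ighv8, interspersed with Ighv1, had means of 5.34% and 4.43% and was lower in 2 of 4, and Sirt7-/- pro-B replicate 1 stood apart at 9.66%. Ighv3 and Ighv9, whose ranges overlap, thus went in opposite directions, and shares of 1 sum are not independent of each other. When the locus was instead cut at the middle of its length, the distal share differed by -4.13 points and was lower in 3 of 4 mice.

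The summed Ighv level varied more between pro-B libraries than between pre-B libraries. At the pro-B stage it was 38870 and 81917 normalized counts in wild-type mice and 56476 and 67247 in Sirt7-/- mice, and at the pre-B stage it was 41704 and 42458 in the former and 41752 and 40697 in the latter. The wild-type pro-B replicates differed by 2.11 times and enclosed all other sums, whereas the 4 pre-B sums nearly coincided. Relative to Ighm, which encodes the mu constant region, there were 121, 221, 145 and 190 Ighv counts per 1000 Ighm counts in the pro-B libraries and 54.0, 54.1, 47.7 and 54.8 in the pre-B libraries, which did not overlap.

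**Figure D2:**
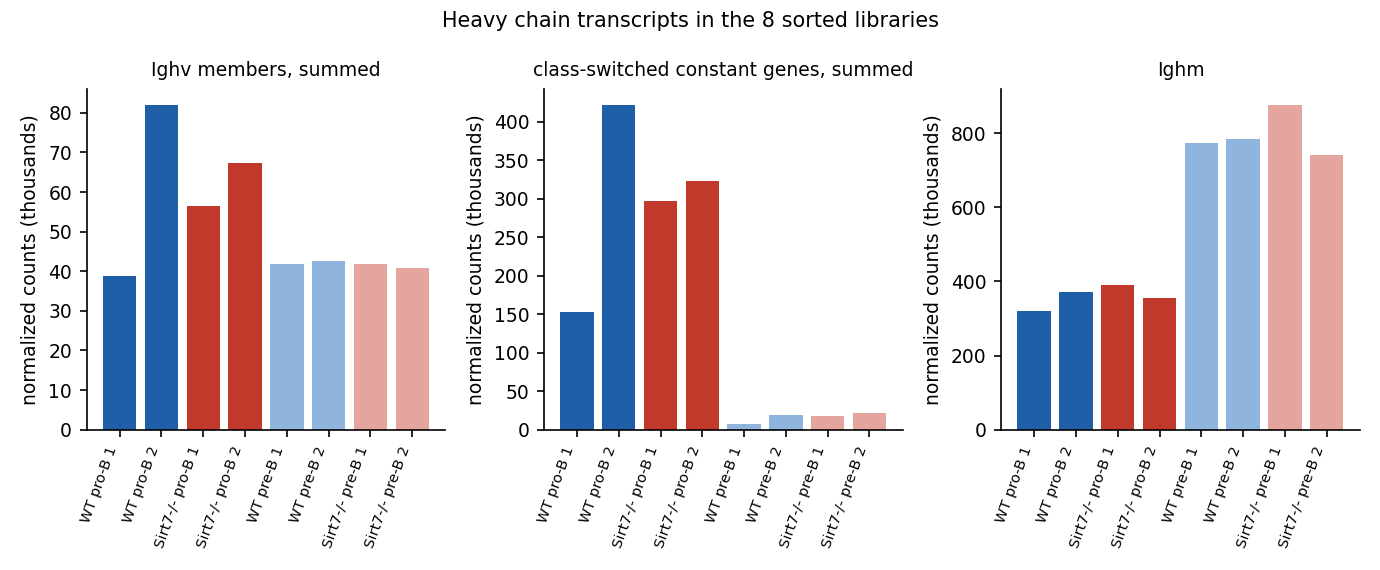
Summed Ighv members, summed class-switched constant region genes and Ighm in the 8 sorted libraries, in normalized counts divided by 1000, 1 bar per library (blue wild-type, red Sirt7-/-, pale pre-B). The 4 pre-B libraries lie between 40697 and 42458 in Ighv sum, while the wild-type pro-B replicates lie at 38870 and 81917.

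Transcripts of later B lineage cells were present in the pro-B gate. The summed class-switched constant region genes (Ighg1, Ighg2b, Ighg2c, Ighg3, Ighe and Igha, with Igha the most abundant) stood at 153356 and 421377 in wild-type and 296544 and 322865 in Sirt7-/- pro-B cells, and at 6668, 18902, 17576 and 21143 in the pre-B libraries. Jchain, the joining chain of secreted IgA and IgM, stood at 20006, 57036, 37239 and 35602 in pro-B and 881, 1307, 2191 and 2114 in pre-B libraries. The pro-B library with the lowest Ighv sum, wild-type replicate 1, was also the lowest in both, and wild-type replicate 2 was the highest in all 3. All 6 class-switched genes were called lower in pre-B cells in each genotype, and in the plasma cell list of 13 genes Jchain, Fkbp11 and Tnfrsf17 were called lower and Eaf2 higher in wild-type cells (4 of 13), with 3 of 13 called, all lower, in Sirt7-/- cells. No class-switched or plasma cell gene was at 0 in every library. The summed plasma cell list, led by Irf4, which pre-B cells also use, ranged from 77612 to 124237 in pro-B and from 63738 to 78164 in pre-B libraries. The part of these transcripts in the pro-B Ighv values was not tested.

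Other lists also moved with the stage. The list of immature and mature B cells, led by Ighd, had 8 of 10 genes called higher in pre-B cells of each genotype, and its sum was 34829, 35544, 41534 and 37184 in the pro-B libraries and 196313 and 153118 (wild-type) and 338736 and 230911 (Sirt7-/-) in the pre-B libraries. The T cell list, led by Lck, had 7 of 10 genes called lower in wild-type and 5 of 10 in Sirt7-/- pre-B cells, and its sum was 6835 to 7391 in pro-B and 3195 to 3905 in pre-B libraries. The myeloid list, led by Itgam, had 3 and 4 of 8 called lower, the NK cell list 1 and 0 of 7, the stroma list 1 and 1 of 8 and the erythroid list 1 and 0 of 7. Haemoglobin and other erythroid genes summed to 48399 and 72991 in the pro-B and pre-B libraries of Sirt7-/- replicate 2, against 5889 to 16539 in the other 6. None of these lists encodes V genes, and their part in the Ighv results was not tested.

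The same contrast was visible gene by gene in the spread between replicates. Over the 109 members with a mean above 50, the median absolute log2 difference between replicates was 0.942 for wild-type pro-B, 0.549 for Sirt7-/- pro-B, 0.182 for wild-type pre-B and 0.167 for Sirt7-/- pre-B libraries. Members differing over 2-fold between replicates numbered 53, 24, 1 and 1. For 8132 other genes at the same minimum the medians were 0.188, 0.194, 0.236 and 0.271, so the members' median lay above that of other genes in both pro-B groups and below it in both pre-B groups. After removal of the shift common to all members, the wild-type pro-B median was still 0.387.

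The identity of the top gene differed between pro-B libraries. Ighv3-6 led in both wild-type pro-B libraries with 5.29% and 5.28% of Ighv counts, Ighv8-11 led in Sirt7-/- pro-B replicate 1 with 4.82%, and Ighv3-8 led in Sirt7-/- pro-B replicate 2 with 6.11%. Ighv5-6 led in all 4 pre-B libraries, with 5.15% to 5.98%. Ighv8-11 stood at 2720 in Sirt7-/- pro-B replicate 1 against 313 to 731 in the other 7 libraries, a value of a single library.

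The effect of SIRT7 on Ighv transcripts was compared within each stage. With 133 of the 161 members passing the filter of at least 10 normalized counts in 2 libraries (28 did not), limma called 0 members between the genotypes at the pro-B stage, where 0.0623% of all 17649 genes tested were called. In pre-B cells it called 0 members, where 0.085% of all genes were called, and for the difference of the stage change between genotypes it called 0, where 0.00567% were called. At an unadjusted p under 0.05 there were 7, 0 and 3 members, where 5.94%, 13.6% and 5.43% of all genes were. On the recovered reads edgeR called 0, 0 and 0 members, where 0.0567%, 0.0283% and 0.00567% of all genes were called. DESeq2 called 2, 0 and 1, where 0.758%, 4.62% and 0.634% of the genes to which it gave an adjusted p were called. The members' median log2 difference was 0.08 in pro-B and -0.02 in pre-B cells, beside 0.00 and 0.02 over all genes. The Igh locus control list, 31 genes for recombinase subunits, end joining, cohesin, CTCF, YY1 and B lineage factors, had 30 tested and 0 called in these 3 comparisons.

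Between stages, few Ighv genes passed. In wild-type cells 9 of 133 tested members passed an adjusted p under 0.05 with an absolute log2 change of at least 1.5, 2 higher and 7 lower in pre-B cells, against 13.9% of all genes (4.34% higher and 9.55% lower). In Sirt7-/- cells 9 passed, 1 higher and 8 lower, against 10.2% of all genes (4.22% higher and 6.03% lower). With all libraries the Ighv share called was below the background in both. With no limit on the change 27 and 24 members passed, where 40.2% and 35.7% of all genes did. Members of the 2 groups did not overlap for 67 and 87 of 133 genes, and for 72.6% and 69.8% of all genes. The wild-type count depended on single libraries: it was 25 without wild-type pro-B replicate 1 (18.8% of the members tested, above the 11.2% of all genes then called) and 5 without wild-type pre-B replicate 1 (3.79% against 11.4%). The Sirt7-/- count was 4 without Sirt7-/- pre-B replicate 1 (3.03% against 7.07%) and 12 without Sirt7-/- pro-B replicate 1 (9.23% against 7.44%), so whether the Ighv share lay below or above that of all genes also depended on single libraries.

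Most tested members were nevertheless lower in pre-B cells, 87 of 133 in wild-type and 94 of 133 in Sirt7-/- cells, with median log2 changes of -0.34 and -0.43 beside -0.04 and -0.04 over all genes. The medians also differed by position. From the D side outward, the 44 nearest members (0.5 to 785.3 kb) had median log2 changes of 0.01 (wild-type) and -0.19 (Sirt7-/-), the 44 middle members (794.0 to 1418.7 kb) -0.25 and -0.38, and the 45 farthest (1451.5 to 2437.2 kb) -0.71 and -0.64. In wild-type cells 21 of the nearest 44, 29 of the middle 44 and 37 of the farthest 45 were lower, and in Sirt7-/- cells 25, 32 and 37. Members could pass the filter through their higher group alone, so these medians describe the members tested and carry no test.

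**Figure D3:**
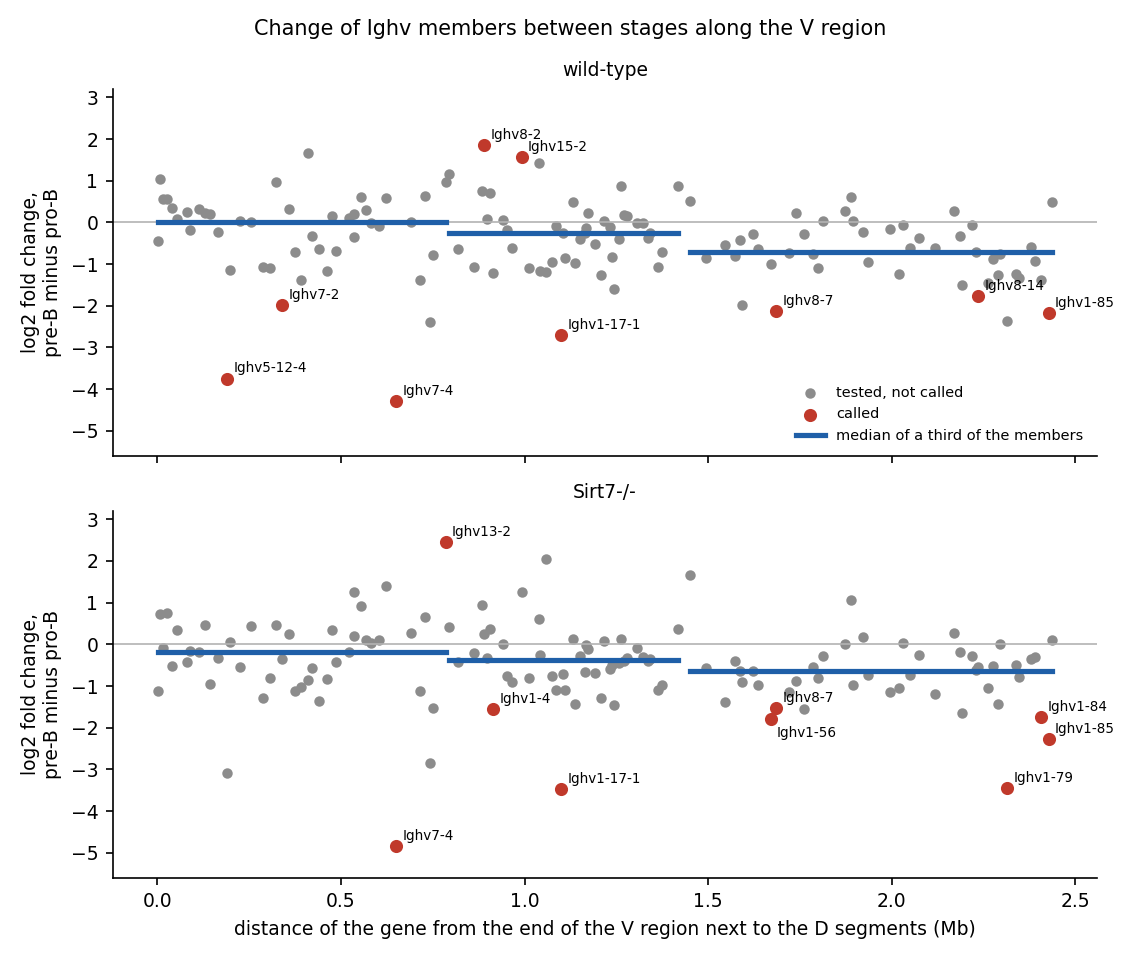
Log2 fold change from pro-B to pre-B cells of the 133 tested members (points, red where called) against distance from the D side of the V region in Mb, for wild-type and Sirt7-/- mice. The blue lines are the medians of the nearest, middle and farthest members, which go from 0.01 to -0.71 in wild-type and from -0.19 to -0.64 in Sirt7-/- cells.

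By family, the median log2 change for Ighv1 was -0.54 (wild-type) and -0.55 (Sirt7-/-), with 55 and 57 of 71 tested genes lower. It was -0.74 and -0.91 for Ighv8, -1.16 and -1.03 for Ighv3, and -0.08 and 0.09 for Ighv5. Ighv2 had medians of different sign, 0.24 and -0.47.

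Among the D-proximal genes, Ighv5-2, the first functional V gene from the D segments, lay higher in pre-B cells. Its level was 312 and 336 in wild-type and 339 and 340 in Sirt7-/- pro-B cells, and 605 and 737 in wild-type and 546 and 588 in Sirt7-/- pre-B cells. All 4 pre-B libraries lay above all 4 pro-B libraries. The log2 change was 1.04 ± 0.158 (SE, limma adjusted p = 0.00244) in wild-type and 0.74 (adjusted p = 0.0121) in Sirt7-/- cells, which passed the adjusted p but not the fold limit. Within single mice the log2 change was 0.95, 1.13, 0.68 and 0.79. Ighv5-6, the most abundant member, did not separate the stages, with 1337, 3409, 1752 and 1937 in pro-B and 2147, 2409, 2495 and 2191 in pre-B libraries.

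The members called higher in pre-B cells were Ighv8-2 and Ighv15-2 in wild-type and Ighv13-2 in Sirt7-/- cells. Ighv15-2 stood at 99.1 and 111 in wild-type pro-B and 316 and 311 in wild-type pre-B cells, with no overlap and a log2 change of 1.57 ± 0.323 (SE, adjusted p = 0.00853 by limma). In Sirt7-/- mice it stood at 81.6 and 161 in pro-B and 286 and 268 in pre-B cells, which did not overlap either. Ighv8-2 went from 48.6 and 49.4 to 221 and 147 in wild-type cells, 1.85 ± 0.278 (adjusted p = 0.0023). In Sirt7-/- cells its values of 146 and 118 in pro-B and 163 and 150 in pre-B were close together. The difference between the stage changes of Ighv8-2 in the genotypes was -1.60 (log2) and did not pass (limma interaction adjusted p = 0.680). Ighv13-2 stood at 54.2 and 49.4 in wild-type pro-B and 119 and 88.5 in wild-type pre-B cells, which did not overlap (log2 change 0.98, limma adjusted p = 0.154). It was called in Sirt7-/- cells, with 10.1 and 28.6 in pro-B and 100.2 and 96.9 in pre-B cells, a log2 change of 2.46 ± 0.485 (adjusted p = 0.00885). The difference between these changes did not pass (interaction adjusted p = 0.909).

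Of the members called lower, 3 of 7 in wild-type and 1 of 8 in Sirt7-/- cells were among the nearest members, 1 and 2 among the middle and 3 and 5 among the farthest. These tallies include Ighv7-4 (nearest), Ighv1-17-1 (middle) and, in Sirt7-/- cells, Ighv1-79 (farthest), which passed the filter only through pro-B libraries. The 1 middle gene in wild-type cells was Ighv1-17-1, and the 1 nearest gene in Sirt7-/- cells was Ighv7-4. The tallies are therefore not support for a difference by position. Ighv1-85, next to the outermost gene, was called in both genotypes, with 448 and 652 in wild-type and 684 and 745 in Sirt7-/- pro-B cells and with 139, 103, 102 and 213 in the pre-B libraries. The stages were far apart, with log2 changes of -2.17 ± 0.373 (SE, limma adjusted p = 0.00408) in wild-type and -2.27 ± 0.373 (adjusted p = 0.00451) in Sirt7-/- cells. Its neighbour Ighv1-86 did not follow, with 57.0, 55.9, 33.0 and 157 in pro-B and 80.5, 79.8, 71.4 and 84.3 in pre-B libraries, and log2 differences of 0.50 and 0.10 that did not pass. Ighv8-7 went from 48.6 and 55.0 to 9.4 and 13.1 in wild-type cells and from 55.0 and 54.4 to 14.9 and 22.1 in Sirt7-/- cells, changes of -2.12 and -1.54 that were both called. Ighv1-56, Ighv1-84 and Ighv1-4 were called lower in Sirt7-/- cells, by -1.78, -1.74 and -1.56, and Ighv8-14 and Ighv7-2 in wild-type cells, by -1.77 and -1.99.

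A few low members were at 0 after the pro-B stage. Ighv7-4 stood at 5.6, 56.9, 8.3 and 88.6 in the pro-B libraries and at 0 in all 4 pre-B libraries, so that its level was at least 9.74-fold lower in wild-type and at least 15.2-fold lower in Sirt7-/- pre-B cells, taking 3 reads per library as the limit of a count of 0. The pro-B replicates themselves were far apart, with replicate 2 high in both genotypes, and from replicate 1 alone these bounds were 1.75-fold and 2.60-fold. The pseudogene Ighv1-17-1 was at 0 in all pre-B libraries (at least 2.04-fold and 3.18-fold lower, with wild-type pro-B replicate 1 itself under the limit), and Ighv1-79 was at 0 in both Sirt7-/- pre-B libraries (at least 3.18-fold lower). These 3 genes passed the filter only through pro-B libraries, where they are high, and are 2 of the 9 called in wild-type and 3 of the 9 called in Sirt7-/- cells, so their calls are not support for a stage change. Ighv5-12-4, a proximal gene, had 112 reads in wild-type pro-B and 5 in wild-type pre-B cells, a ratio of 19.6 (95% counting interval 8.14 to 61.4, which covers counting error only). Its log2 changes within single mice were -3.37 and -4.12 in wild-type and -5.44 and -0.75 in Sirt7-/- mice. The wild-type call depended on single libraries.

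Among the most abundant genes of other families the pro-B replicates were again far apart. Ighv3-6 stood at 2055 and 4328 in wild-type and 2626 and 1903 in Sirt7-/- pro-B cells and at 1086, 1224, 1076 and 974 in the pre-B libraries, which were all lower, with log2 changes of -1.37 (limma adjusted p = 0.0165) and -1.13 (adjusted p = 0.0375) that passed the adjusted p and not the fold limit. Ighv2-9 stood at 1595, 4158, 1712 and 2113 in pro-B and 1218, 1211, 1031 and 1159 in pre-B libraries. Ighv9-3 stood at 1196, 2536, 1612 and 2273 in pro-B and 2131, 2143, 2129 and 2006 in pre-B libraries. The Ighv2-9 stages did not overlap, whereas the pre-B values of Ighv9-3 lay inside its pro-B range. Ighv1-9, among the highest of Ighv1, had 1278, 2621, 1046 and 2443 in pro-B and 871, 840, 835 and 1014 in pre-B libraries, with no overlap.

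Of the Igh locus control list, Dntt (-7.30) and Rag1 (1.66), the recombinase subunit, were called between stages in wild-type cells, and Dntt (-4.58) and Pou2f2 (1.87), an octamer-binding factor of B cells, in Sirt7-/- cells, all as log2 changes. The constant region gene Ighd, expressed as B cells mature, rose by 2.79 and 3.38 on the log2 scale, and Igha fell by 4.31 and 3.49.

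In cultured Pax5-/- pro-B cells few genes made up most of the Ighv counts. Of the 104 members, 27 passed the filter and 77 did not, 85 were coding and 19 pseudogenes, 39 had counts in all 8 libraries, and 2 genes made up 50% of the Ighv counts. The summed Ighv level was 1675 and 1644 with EV, 1352 and 1382 with Pax5Wt, 1250 and 1138 with K198Q and 1255 and 802 with K198R. Both EV libraries lay above the other 6. The tables were normalized separately, so these sums were not set against those of sorted cells. Here the gene nearest inside the rule was Ighv1-1 with a highest library of 1.0002, the nearest outside was Ighv1-17 with 0.997, and 66 of 81 genes outside were at 0.

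Ighv1 was the main family in Pax5-/- cells. Its share was 83.1% and 85.1% with EV, 70.5% and 75.1% with Pax5Wt, 80.1% and 82.1% with K198Q and 72.7% and 65.0% with K198R. The EV and K198Q libraries lay above the Pax5Wt and K198R libraries. The largest part of this share came from Ighv1-62-1, a gene of the distal part at chr12:115386697-115387128, with 673 and 763 (EV), 445 and 465 (Pax5Wt), 457 and 463 (K198Q) and 418 and 190 (K198R), which was 23.7% to 46.4% of all Ighv counts of a library and ranked first per kb of exon at 1387. The EV values were the highest, and with K198R the log2 difference from EV was -1.34 (limma adjusted p = 0.0364), under the fold limit. With 2 cultures per group, the exact permutation test of a sum or a share cannot go below p = 0.33, so sums and shares are given as values.

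The Ighv5 share was highest with Pax5Wt. It was 8.4% and 7.7% with EV, 20.2% and 14.5% with Pax5Wt, 3.2% and 3.4% with K198Q and 3.0% and 5.3% with K198R. Pax5Wt lay above EV and both mutants below it, and the K198Q values lay inside the K198R range. Most of the Ighv5 counts with Pax5Wt came from 1 gene, Ighv5-4. Its level was 67 and 51.9 with EV, 239 and 179 with Pax5Wt, 7.0 and 5.9 with K198Q and 10.3 and 15.0 with K198R, 4 groups of which only the mutants lay near each other and none overlapped.

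Ighv5-4 was the one member called in all 3 comparisons with EV and in both with Pax5Wt, which share those control libraries. With Pax5Wt over EV its log2 level rose by 1.79 ± 0.358 (SE, adjusted p = 0.0409 by limma), the only member called, where 1.52% of 13345 genes were. With K198Q over EV it fell by 3.01 (adjusted p = 0.00945), again the only member without a replicate block, where 0.659% were called, and with K198R over EV it fell by 2.15 (adjusted p = 0.00916), 1 of 5 members, where 4.59% were called. Directly between forms it was lower with K198Q than with Pax5Wt by a log2 difference of -4.80 (adjusted p = 0.0163), the only member, where 0.0225% of genes were called, and lower with K198R than with Pax5Wt by -3.95 (adjusted p = 0.0037), the only member without a replicate block, where 1.6% were called. With the replicate number as a block, 2 members were called for K198Q over EV, where 1.05% of genes were, 8 for K198R over EV, where 5.7% were, and 3 for K198R over Pax5Wt, where 2.44% were. The mutants themselves differed by 0.86 (K198R minus K198Q, adjusted p = 0.278, SE 0.358), which did not pass. Leaving out any 1 library of the 2 groups ended the calls of Pax5Wt over EV (log2 1.59 to 1.998), K198Q over EV (-3.19 to -2.83) and K198Q over Pax5Wt (-5.01 to -4.60), whereas K198R below Pax5Wt remained called in all 4 cases (-4.20 to -3.70).

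**Figure D4:**
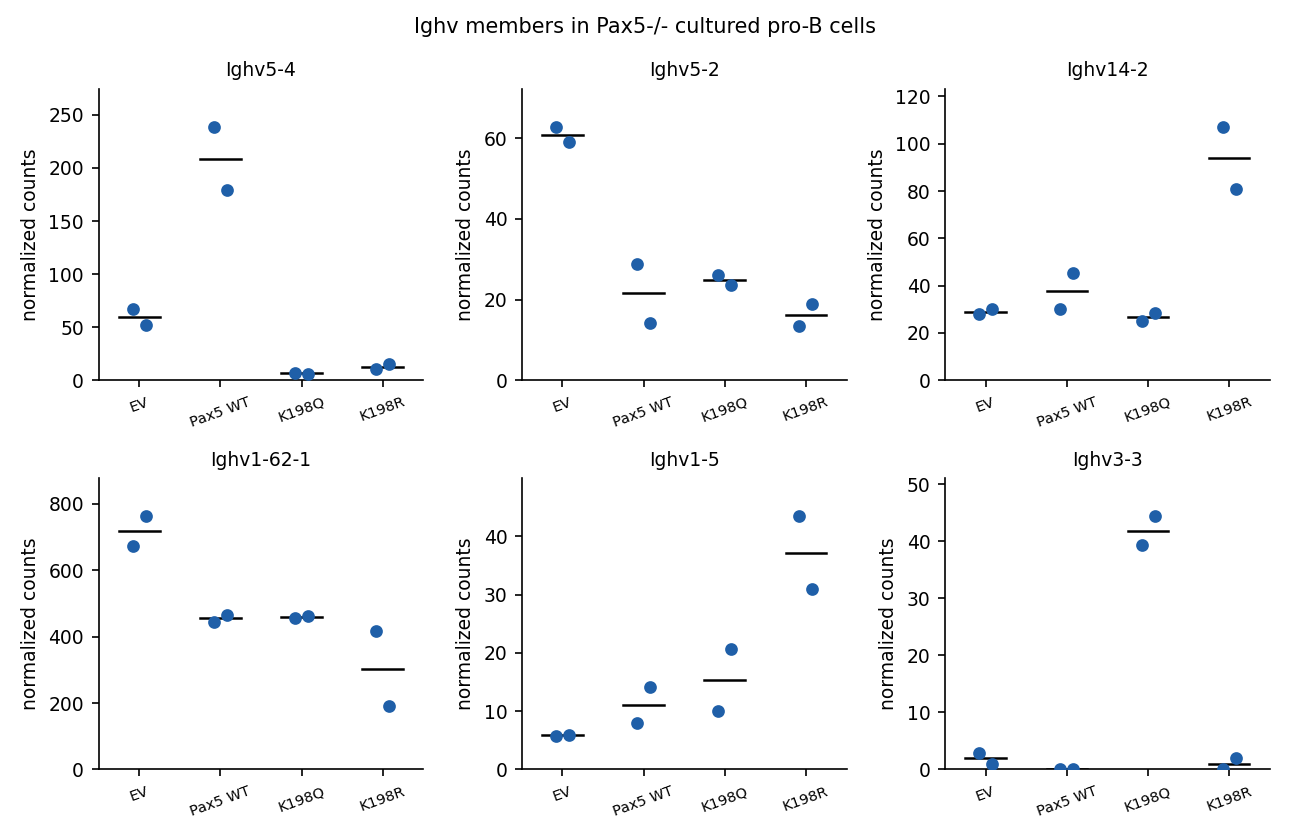
Normalized counts of 6 Ighv genes in Pax5-/- cultures with EV, Pax5Wt, K198Q or K198R, with a dot for each library and a line at the mean of the 2. Ighv5-4 is highest with Pax5Wt at 239 and 179 and at most 15.0 with either mutant, Ighv14-2 and Ighv1-5 are highest with K198R, and Ighv3-3 is above 2.9 with K198Q alone.

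Ighv5-2, closer to the D segments than Ighv5-4, took another course. It stood at 62.8 and 59 with EV, 28.9 and 14.1 with Pax5Wt, 26.2 and 23.7 with K198Q and 13.5 and 18.9 with K198R. EV was the highest, above each of the 3 forms of Pax5, and the call was made for K198R over EV (-1.86, limma adjusted p = 0.0320). Thus Pax5Wt libraries lay above EV for Ighv5-4 and below EV for Ighv5-2, genes that lie 25.0 and 6.1 kb from the D end.

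The other 3 members called with K198R over EV were Ighv14-2, Ighv1-5 and Ighv1-76. Ighv14-2, 422.0 kb from the D end, stood at 28 and 29.996 with EV, 29.9 and 45.4 with Pax5Wt, 25.1 and 28.6 with K198Q and 107 and 80.8 with K198R. K198R was above all other libraries, with log2 differences of 1.65 from EV (limma adjusted p = 0.0210) and 1.76 from K198Q (adjusted p = 0.0277). Ighv1-5 stood at 5.8 and 6.0, 8.0 and 14.1, 10.0 and 20.8, and 43.5 and 30.98 in the same order and was called over EV (2.45, adjusted p = 0.0242). Its K198R values were again the highest. Ighv1-76 went from 8.8 and 23.3 with EV to 1.5 and 1.5 with K198R (-2.63, adjusted p = 0.0496), and the other 4 libraries lay at 4.6 to 14.2.

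Between the mutants, 3 members were called where 2.53% of genes were. Besides Ighv14-2 these were Ighv3-3, at 39.3 and 44.4 with K198Q and 0 and 2.0 with K198R, and Ighv1-41, at 19.3 and 15.8 against 0 and 1.0 (-3.70, limma adjusted p = 0.0332). Ighv3-3 passed the filter only through the 2 K198Q libraries, where it is high, so it is given by its values and its call is not support for a difference. Ighv3-3 was high in the K198Q libraries alone, since it stood at 2.9 and 1.0 with EV and was listed at 0 in both Pax5Wt libraries, while Ighv1-41 stood at 11.6 and 3.0 with EV and 11 and 24.3 with Pax5Wt. The calls for K198R over EV and between the mutants depended on single libraries. With any 1 library left out, Ighv14-2 differed by a log2 of 1.45 to 1.85 from EV and 1.56 to 1.96 from K198Q. Without either K198Q replicate, Ighv3-3 was no longer tested.

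Among all 27 tested members the median log2 difference from EV was -0.62 with Pax5Wt, -0.49 with K198Q and -0.69 with K198R, beside 0.00, -0.01 and 0.01 over all genes, with 19, 21 and 20 of the 27 lower. The 3 comparisons share the EV libraries. Between forms the members' medians were 0.02 for K198Q minus Pax5Wt, 0.10 for K198R minus Pax5Wt and -0.26 for K198R minus K198Q.

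Among the recombination genes, Rag1 and Rag2 were called. Rag1, a recombinase subunit, stood at 1443 and 2289 with EV, 8938 and 8704 with Pax5Wt, 7230 and 5909 with K198Q and 18291 and 18398 with K198R and was called with each form over EV, at log2 differences of 2.28, 1.85 and 3.33. Rag2 was called with Pax5Wt (1.69) and K198R (2.54) over EV. Of the 31 genes of the Igh locus control list, 3 were called with Pax5Wt, 2 with K198Q and 4 with K198R over EV, all higher and Pax5 itself included, and with K198R the fourth was Irf4 (1.56), a factor of light chain recombination and plasma cells. Ighm stood at 35821 and 39098, 37847 and 34802, 34316 and 33233, and 61438 and 62013 in the same order of groups, highest with K198R. Jchain stood at 67983 and 65946 with EV and was lowest with K198R at 32232 and 26540. Other genes of the plasma cell list were mixed with EV, as Mzb1 stood at 10546 and 11782 and Prdm1 at 7.3 and 4.6. Jchain alone therefore names no cell type here. Ighg2b was listed at 0 in both EV libraries and stood at 337 and 205 with K198R.

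Lists of other cell types also moved in the Pax5-/- cultures. With K198R over EV, 3 of 6 tested T cell genes (Cd3g, Thy1 and Trbc1) and 1 of 4 NK cell genes (Nkg7) were called lower. Of 4 myeloid genes Csf1r and Mpo were called lower and Lyz2 higher. Of 7 immature and mature B genes 2 were called higher and 1 lower, and both tested class-switched genes were called, Ighg2b higher and Igha lower (-2.43). Called were also 1 of 7 stroma genes (Pdgfrb, lower), 1 of 11 plasma cell genes (Irf4, higher) and 0 of 1 erythroid genes. With Pax5Wt over EV, 1 of 6 T cell, 1 of 7 stroma and 1 of 2 class-switched genes (Igha, -2.50) were called lower. In that comparison 1 of 4 myeloid and 1 of 7 immature and mature B genes were called higher. The T cell list, led by Lck, summed to 3662 and 4584 with EV, 3215 and 3777 with Pax5Wt, 3498 and 3595 with K198Q and 2388 and 3038 with K198R, and the myeloid list, led by Itgam, to 1011 and 730, 484 and 465, 746 and 715, and 655 and 408. The K198R sums of the T cell and myeloid lists lay below those of EV. The stroma list, led by Fn1, summed to 3124 and 4153, 2471 and 6405, 2896 and 5003, and 2896 and 4107 in the same order, highest in Pax5Wt replicate 2. The part of these lists in the Ighv values was not tested.

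In the cultured Sirt7-/- and wild-type set, all 97 Ighv genes listed were members, of which 19 passed the filter and 78 did not, 80 were coding and 17 pseudogenes, and 3 genes made up 50% of the Ighv counts. The summed level was 850 and 692 in wild-type cells with EV, 1417 and 1125 in Sirt7-/- cells with EV, 1207 and 761 with Pax5Wt and 729 and 257 with K198R. The Sirt7-/- EV libraries lay above the wild-type EV libraries, and the K198R libraries were below both Sirt7-/- EV libraries, but K198R replicate 2 was far below replicate 1. Members with at least 10 normalized counts numbered 18 and 16, 16 and 16, 19 and 15, and 9 and 6 in that order. Sirt7 itself stood at 1324 and 905 in wild-type and 325 to 407 in the 6 Sirt7-/- libraries. The stroma list, led by Fn1, summed to 9929 and 8696 in wild-type EV, 7276 and 11441 in Sirt7-/- EV, 11439 and 29078 with Pax5Wt and 8920 and 21929 with K198R, so that replicate 2 was the higher one in the 3 Sirt7-/- groups, K198R among them. Its 7 tested genes were all higher with K198R than with EV, by a median of 0.69 (log2), with 0 called, and their part in the Ighv values was not tested. The T cell list, led by Thy1, summed to 3266 and 2200, 2966 and 1702, 1220 and 537, and 888 and 522 in the same order, and with K198R over EV 1 of 3 tested T cell, 1 of 3 myeloid, 0 of 2 NK cell and 0 of 1 class-switched genes were called, the T cell and the myeloid gene lower.

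Ighv1 was again the main family. Its share was 63.9% and 69.97% in wild-type EV, 79.6% and 73.3% in Sirt7-/- EV, 76.7% and 72.1% with Pax5Wt and 88.4% and 79.7% with K198R. Wild-type cells had the lowest and K198R the highest shares, without overlap with the others. Ighv8, the other distal family, stood at 19.9% and 14.0%, 10.9% and 15.0%, 10.2% and 11.99%, and 5.8% and 8.4%, lowest with K198R. Per kb of exon Ighv1-66 ranked first at 671 normalized counts, followed by Ighv1-85 at 311 and Ighv8-12 at 184.

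Sirt7-/- cells with EV did not differ from wild-type cells with EV by the test in any member. limma called 0 of 19 where 0.557% of 13651 genes were called, and 0 members had an unadjusted p under 0.05, where 9.68% of genes had. Ighv1-66 stood at 193 and 138 in wild-type EV and 497 and 345 in Sirt7-/- EV, and Ighv1-85 at 73.9 and 62.0 against 219 and 98.8. Both were higher in both Sirt7-/- libraries, and neither passed. The groups also did not overlap for Ighv1-53, Ighv1-55, Ighv1-69, Ighv1-75, Ighv1-77, Ighv1-84 and Ighv2-2, all higher in Sirt7-/- cells. Without overlap and lower in Sirt7-/- cells were Ighv2-5, Ighv5-2 and Ighv1-62-1. The share of all genes without overlap is not given for this comparison, so these lists describe the members and are not read as a difference between the genotypes. The median log2 difference of the 19 was 0.49, with 13 higher, beside -0.01 over all genes.

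With added Pax5Wt no member passed the test. limma called 0 members, where 0.0366% of genes were called, with 0 at an unadjusted p under 0.05, where 9.91% of genes were, and a median log2 difference of -0.21. The groups did not overlap for 5 of the 19, 1 higher and 4 lower, where 38.7% of all genes did not overlap. Ighv1-66 stood at 361 and 210 with Pax5Wt, with 1 value inside and 1 below the EV range.

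K198R in Sirt7-/- cells gave lower Ighv counts than EV. All 19 tested members were lower, by a median of -1.49 (log2) beside 0.01 over all genes, and 14 did not overlap, where 24.4% of all genes were lower without overlap. Members could pass the filter through the EV cultures, so these counts describe the members tested. Called were 4 members, all lower, where 4.83% of genes were called and 2.74% called lower. They were Ighv8-8, Ighv5-2, Ighv8-12 and Ighv1-55, from both ends of the locus.

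Ighv8-8 stood at 41.9 and 45.7 with EV and 8.9 and 3.7 with K198R, a log2 change of -2.72 ± 0.538 (SE, limma adjusted p = 0.0319). Ighv8-12 stood at 98.0 and 93.4 with EV and 26.6 and 12 with K198R (-2.35 ± 0.469, adjusted p = 0.0326). Ighv1-55 stood at 70.5 and 67.4 with EV and 24.6 and 23.3 with K198R (-1.49 ± 0.310, adjusted p = 0.0369). The Pax5Wt libraries of these 3 distal genes lay between those of EV and K198R, at 29.0 and 20.5, 83.8 and 53.1, and 62.6 and 46.0.

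Ighv5-2, the most proximal of the 4, stood at 36.9 and 31.4 in wild-type EV, 11.9 and 23.3 in Sirt7-/- EV, 17.6 and 18.6 with Pax5Wt and 2.0 and 1.9 with K198R. Wild-type cells were the highest and K198R the lowest, with a change of -2.60 ± 0.489 from EV to K198R (SE, limma adjusted p = 0.0273). The same gene was called with K198R over EV in Pax5-/- cells. The 4 calls with K198R over EV in Sirt7-/- cells depended on single libraries. With any 1 library of the 2 groups left out, the log2 change of Ighv5-2 was -3.06 to -2.15. Fewer of all genes were then called as well, so the loss was not particular to the members.

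**Figure D5:**
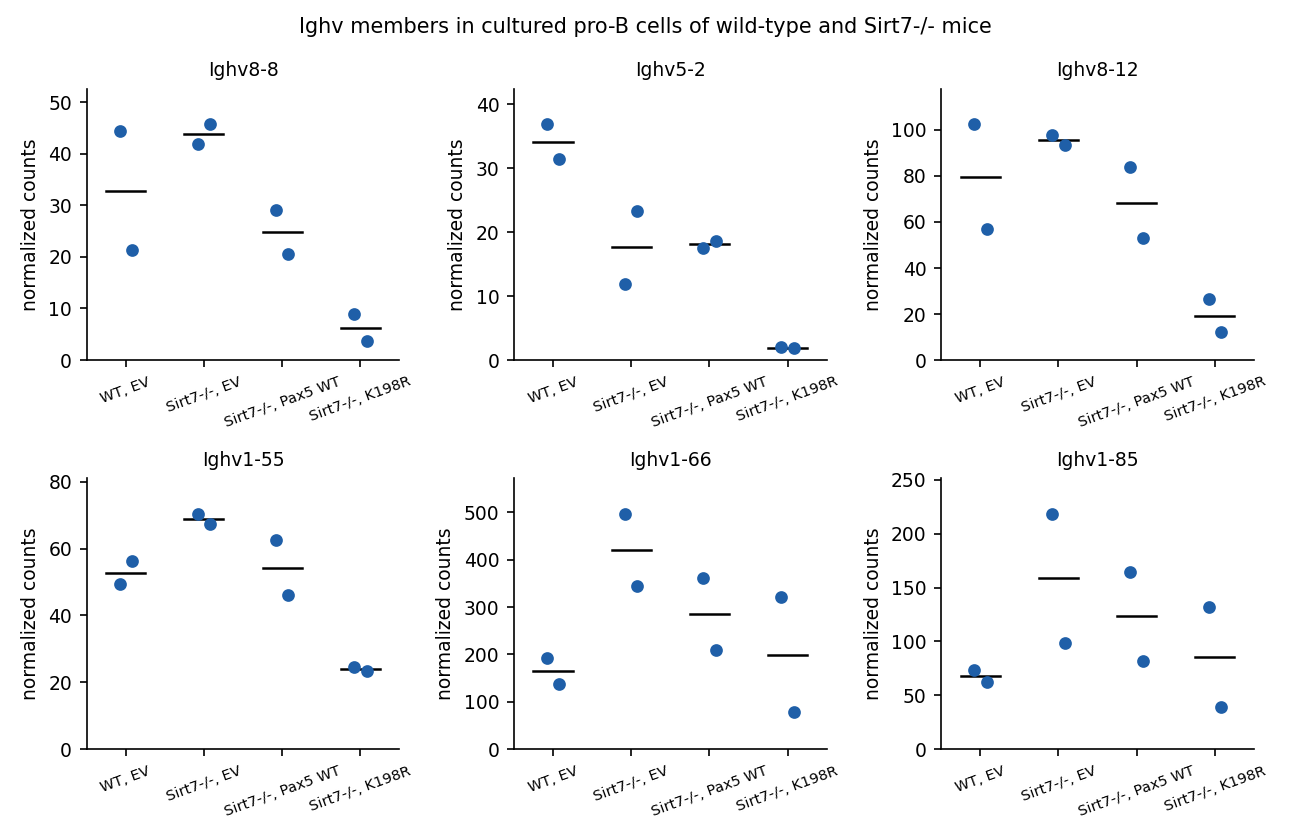
Normalized counts of 6 Ighv genes in cultured wild-type and Sirt7-/- pro-B cells with EV, Pax5Wt or K198R, with a dot for each library and a line at the mean of the 2. The first 4 panels show the called genes, with the K198R dots below all others, and in Ighv1-66 and Ighv1-85 the K198R replicates are far apart.

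The 2 most abundant genes did not pass with K198R. Ighv1-66 stood at 320 and 78.0 and Ighv1-85 at 132 and 39.6, and in each the second replicate was far below the first and below both Sirt7-/- EV libraries. The first replicate was also below both Sirt7-/- EV libraries for Ighv1-66 and inside their range for Ighv1-85. Against Pax5Wt, limma called 0 members where 0.425% of genes were called, with 9 of 19 at an unadjusted p under 0.05, where 8.78% of genes were. All 19 were lower, by a median of -1.36, and 13 did so without overlap, where 17.9% of all genes were lower without overlap. With the replicate number as a block, 7 members were called against EV, where 11.6% of genes were, and 2 against Pax5Wt, where 2.3% were.

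Other heavy chain and locus genes moved in these cultures. Il7r, the receptor of IL-7, on which distal V gene rearrangement is known to depend, stood at 10843 and 10445 in wild-type EV, 5361 and 6155 in Sirt7-/- EV, 5301 and 5873 with Pax5Wt and 2431 and 2834 with K198R. It was called lower in Sirt7-/- EV than wild-type EV (-0.89), and lower with K198R than with EV (-1.13) and than with Pax5Wt (-1.09). Ezh2, the histone methyltransferase also known to be needed for distal rearrangement, stood at 15869 and 15800 in Sirt7-/- EV and 9836 and 8493 with K198R (-0.79, called). These 2 were the members of the 31-gene list called with K198R over EV. Ighd stood at 814 and 899, 2174 and 3045, 5115 and 12225, and 10319 and 25102 in the order of groups above and was called with K198R over EV (2.64), while Ighm ranged from 77478 to 92418 without a call. The plasma cell list had 4 of 12 tested genes called (Slamf7 higher, and Jchain, Mzb1 and Prdm1 lower) and the list of immature and mature B cells 4 of 9 (3 higher). Jchain was at 110 and 110 in wild-type EV and 16 and 21 with K198R. The part of a shift in B cell stage in the Ighv values was not tested.

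Pax5 peaks were few in the V region. Between the outermost Ighv genes lay 1 and 4 peaks of the Pax5Wt lists (of 10646 and 11830), 1 and 2 of the K198Q lists (of 3750 and 3957) and 6 and 3 of the K198R lists (of 12158 and 13997). Peaks within 1 kb of the start of an Ighv gene numbered 0 and 2, 0 and 1, and 4 and 1. The counts differed as much between replicates as between forms. The peak names inside the list of K198R replicate 2 carry the replicate number 3, so which replicate it holds is uncertain. Reads had been kept only above a high mapping quality, and its effect on the V region was not tested.

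These 17 peaks fell on 6 places. One, at chr12:114182567-114183227, between Ighv14-4 and Ighv3-3, was present in all 6 lists, at fold enrichments over input of 13.4 and 7.91 with Pax5Wt, 12.9 and 12.3 with K198R and 3.78 and 5.66 with K198Q. The K198Q values were the lowest, below each replicate of the other forms. Another, 34 to 68 bases beyond the 3′ end of Ighv1-78, was in 4 lists at 4.64 to 7.45, one upstream of Ighv13-1 in 3 lists at 4.01 to 7.73, one 463 to 484 bases upstream of Ighv8-4 in 2 lists at 4.49 to 6.22, and 2 more in K198R replicate 1 alone, at 4.51 near Ighv1-11 and 4.59 near Ighv8-4. None lay at Ighv5-4, Ighv5-2 or Ighv14-2. The place in all 6 lists is shown because it was the only one of the 6 places in all 6 lists, as a 300-base window (chr12:114182678-114182977, plus strand, GRCm38), with capitals for the 185 bases that all 6 peaks cover.
Peak between Ighv14-4 and Ighv3-3: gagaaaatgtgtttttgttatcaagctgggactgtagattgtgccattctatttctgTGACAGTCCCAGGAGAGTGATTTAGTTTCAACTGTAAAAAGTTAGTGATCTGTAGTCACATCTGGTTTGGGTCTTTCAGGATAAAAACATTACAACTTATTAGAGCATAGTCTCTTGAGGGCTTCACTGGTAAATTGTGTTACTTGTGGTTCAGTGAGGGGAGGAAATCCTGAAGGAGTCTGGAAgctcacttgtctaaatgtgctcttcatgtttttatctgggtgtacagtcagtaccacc
The motif GCGTGAC, the core of the Pax5 motif searched on both strands, occurred in the window of none of the 17 peaks, where 5.63% to 9.10% of all peak windows of a list held it. A lack of matches says only that these letters are not in the window.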

How the data were processed

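RNA-seq was analysed from the deposited tables of normalized counts. Per the study's methods and the submitters' notes, the authors ran Salmon quantification on mm10, imported the estimates with Tximeta and divided counts by DESeq2's median of ratios, giving a signal in normalized counts per gene. The strand in the counting and tool versions are not given in the sources used here. Library totals were 50603577 to 54896194 normalized counts for sorted cells, 28865461 to 30520853 for Pax5-/- cultures and 27814214 to 30160880 for the wild-type and Sirt7-/- cultures, and the tables were normalized separately. For sorted cells 100% of values were whole multiples of 1 step per library (tolerance 0.01), which gave 50004827 to 55536608 reads per library. The cultured tables had no common step, so counting intervals are not given for them. Many Ighv rows there had no deposited symbol, and 57 and 56 members were matched by Ensembl gene ID to the GRCm38 annotation.

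Values were tested as log2(normalized count + 1) with limma 3.58.1 (trend, R 4.3.3), the 4 groups of a table in 1 fit, over genes with at least 10 normalized counts in 2 or more libraries, with Benjamini-Hochberg adjustment over all genes tested (17649, 13345 and 13651). On this scale the change of low genes is understated. A gene was called at an adjusted p under 0.05, with an absolute log2 change of at least 1.5 also needed between stages and in Pax5-/- cells, as in the study. edgeR 4.0.16 and DESeq2 1.42.0 were run on the recovered reads as alternatives. Tables and peaks were joined in Python 3.11.15 with pandas 2.3.3 and numpy 2.4.6. The scripts were tested on simulated data. Members and gene lists were chosen with earlier results of these data known. Named genes were the 5 highest members of each table, the highest of each family with a group mean of at least 100, up to 5 called members each way per comparison with groups that did not overlap, Ighv5-2, Ighv1-86 and the listed genes.

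Each sorted replicate is 1 mouse per the methods, and titles pair the stages by mouse (correlation of deviations 0.08 in wild-type and 0.156 in Sirt7-/- cells). The cultured replicates were made on different days, and same-numbered libraries deviated together in all group pairs (correlations 0.264 to 0.383 in Pax5-/- cultures and 0.156 to 0.428 in the others), but no source used here says that a number marks a shared day, so fits with and without this block are given. The p-values rest on the spread between replicates within the 4 groups of a table, which limma pooled over the groups and moderated over genes.

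The peak lists hold fold enrichment over input (a ratio) and −log10 q values as deposited. Per the methods, the authors aligned with Bowtie2, kept reads of high mapping quality without duplicates, and called peaks with MACS2 per replicate at a q-value under 0.05. Peaks were counted between the outermost Ighv genes. Columns of the deposited tables other than these were not used here.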

Additional observations from a re-analysis of the deposited data

Results flagged for a closer look

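One gene, Ighv5-4, was singled out because its response to wild-type Pax5 and its responses to both mutants, each measured against the same EV libraries of Pax5-/- cells, had opposite signs and the difference between them was itself tested. With Pax5Wt the gene was higher than with EV (log2 1.79), and with the mutants it was lower (K198Q -3.01, K198R -2.15). The tested difference was -4.80 for K198Q minus Pax5Wt (limma adjusted p = 0.0163) and -3.95 for K198R minus Pax5Wt (adjusted p = 0.0037), in the same direction in both replicates of each mutant. The row of this gene carries no symbol in the deposited table and was matched by its Ensembl gene ID.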

How the results depend on the processing

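Over 176 settings of the counts, shares and peaks, 123 left the result on its side of its limit. Whether the Ighv share called between stages lay below or above that of all genes turned with single libraries, as given above. Of 266 values of single named members under other settings, 171 stayed called, 95 did not pass (71 of these with a library left out) and 0 changed direction.

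With a pseudocount of 5, K198Q over EV called 2 members. With no filter on low counts the counts were 0 for Pax5Wt over EV, 3 for K198R over EV and 1 for K198R over K198Q in Pax5-/- cells, and 1 for K198R over EV in Sirt7-/- cells. TMM scaling without immunoglobulin genes gave 2 for K198R over Pax5Wt in Pax5-/- cells. The share of all genes called is not given for these settings, so their counts say nothing on the members in particular. DESeq2 on recovered reads called 2 members between genotypes in pro-B cells and 1 in the interaction. Using deposited symbols only (chosen after seeing the data), the counts were 0 for Pax5Wt over EV, K198Q over EV, K198Q over Pax5Wt and K198R over Pax5Wt in Pax5-/- cells, because Ighv5-4 has no symbol there, and 2 for K198R over EV in Sirt7-/- cells.

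With the replicate number as a block, counts in cultured cells were 2 for K198Q over EV, 8 for K198R over EV and 3 for K198R over Pax5Wt in Pax5-/- cells, and 7 for K198R over EV and 2 for K198R over Pax5Wt in Sirt7-/- cells. The mouse block gave 7 in wild-type and 9 in Sirt7-/- cells between stages and changed no other count by over 1.5 times. The share of all genes called with the mouse block is not given here.

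With a library left out in turn, the range was 5 to 25 for the wild-type stage change, 4 to 12 for the Sirt7-/- stage change, 0 to 0 for Pax5Wt over EV, K198Q over EV and K198Q over Pax5Wt, 1 to 1 for K198R over Pax5Wt, 0 to 4 for K198R over EV and 0 to 1 for K198R over K198Q in Pax5-/- cells, and 0 to 2 for K198R over EV in Sirt7-/- cells. A lone sample was then assumed to vary like the other groups.

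The Ighv1 share change was -7.17 points without the most abundant gene, -6.62 over coding genes, -4.13 for the genes beyond the middle of the locus, -5.596 per exon base (chosen after seeing the data) and -6.00 to -5.31 without 1 mouse. Of the peaks, 1 of 2 in K198Q replicate 2, 3 of 6 in K198R replicate 1 and 1 of 4 in Pax5Wt replicate 2 had an overlap with the list of its partner replicate, by 1 base or by 50%. The cause of these differences was not tested.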
